A study of Homo sapiens with 40 samples.

Results

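The genes described here are 9 enzymes of the route from tryptophan through kynurenine to the precursor of NAD, where ACMSD leads off the route. These are TDO2, IDO1, IDO2, AFMID, KMO, KYNU, HAAO, ACMSD and QPRT. They were chosen by gene name, and all 9 were among the 56568 gene names in the 2 transcript tables. HepaRG is an established human liver cell line that, once differentiated, gives a mixed culture of cells resembling hepatocytes and cells resembling bile duct epithelium. The cultures were exposed from day 8 to day 14, for 6 days, in medium with 2% FBS and 1% DMSO, and every group shared this medium. Each of the 8 groups had 5 libraries. One group received the solvent alone. The polychlorinated biphenyl PCB 126, a dioxin-like agonist of the aryl hydrocarbon receptor, was given at 100 pM, at 10 nM or at 1 µM. Glyphosate was given at 10 µg/L, at 1 mg/L or at 0.1 g/L, and Roundup, a herbicide formulated with glyphosate, only at 10 µg/L. The same 5 control libraries stood in both tables, so all 7 comparisons with control shared them. The labels did not say whether libraries of a group came from separate cultures, so p-values measure the spread between these libraries, which may be technical.

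The kynurenine pathway is the main route of tryptophan breakdown, and in the body the liver carries most of it. Its first and rate-limiting step opens the indole ring of tryptophan, and the last enzyme described here makes a mononucleotide from which NAD is built. Kynurenine and some of its products can bind the aryl hydrocarbon receptor, which is also the receptor of PCB 126. Liver cells depend on TDO2 for the first step, whereas IDO1 carries out the same reaction mostly in other tissues and is known for its induction by interferon-gamma.

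Values are FPKM, in which fragments are scaled to transcript length and to the mapped fragments of a library, and they were added up over all transcripts listed under one gene name. No read counts were given, so the depth behind a value is unknown and the 5 libraries of a group limit the precision. Library totals ran from 255292 to 513059 FPKM, and between 71169 and 118592 transcripts were above 0. On the first principal component, which held 44.1% of the variance in the PCB 126 table and 44.6% in the herbicide table, 5 libraries of each table stood apart from the others. In the PCB 126 table they were control replicate 5, 10 nM replicates 3 and 5, and 1 µM replicates 1 and 5. In the herbicide table they were control replicate 5, glyphosate 10 µg/L replicate 5, glyphosate 0.1 g/L replicate 2, and Roundup replicates 4 and 5. The hepatocyte marker ALB was at 11206 ± 1483 FPKM (SD, n = 5) in controls and the biliary marker KRT19 at 303.1 ± 85.6. The biliary and progenitor marker EPCAM was above 0 in only 1 of the 5 control libraries, and the endothelial marker CDH5 in none of them. RNA was extracted from whole cultures, so fewer cells of a type and less RNA per cell cannot be told apart.

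In these cultures the pathway was expressed from TDO2 to QPRT, with the 2 alternative first enzymes at or near 0. Differences were tested with limma on log2(FPKM + 1), with Benjamini-Hochberg adjustment over all genes of a table and a threshold of 0.05, and fold changes are on that scale, which understates the change of low genes. A gene was tested where the variance of its FPKM over the libraries of a table was above 1. This was the case for 6 of the 9 members in both tables (TDO2, AFMID, KYNU, HAAO, ACMSD and QPRT). KMO, IDO1 and IDO2 varied less and were described by their values. No member was called by gene name in any of the 12 tests. Of the 9755 genes tested with PCB 126 the share called was 0% at 100 pM, where 116 genes had an unadjusted p under 0.05, 0.205% at 10 nM, 1.87% at 1 µM, 3.7% over dose steps and 1.39% by the F-test. In each of the 7 herbicide tests limma called 0 of 9533 genes, a share of 0%, while between 84 and 165 had an unadjusted p under 0.05. With PCB 126, 1 of the 6 tested members had an unadjusted p under 0.05 in each of the 5 tests. Over all 9755 genes that number was 473 at 10 nM, 1322 at 1 µM, 1819 over dose steps and 933 by the F-test, so nothing is read from the single members. With glyphosate or Roundup none of the 6 tested members had one in any of the 7 tests. By exact permutation test on the same scale, 0 of 72 comparisons of a member between a pair of groups had a p under 0.05. With 5 libraries against 5 the smallest 2-sided p that all splits allow is 0.00794.

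**Figure D1:**
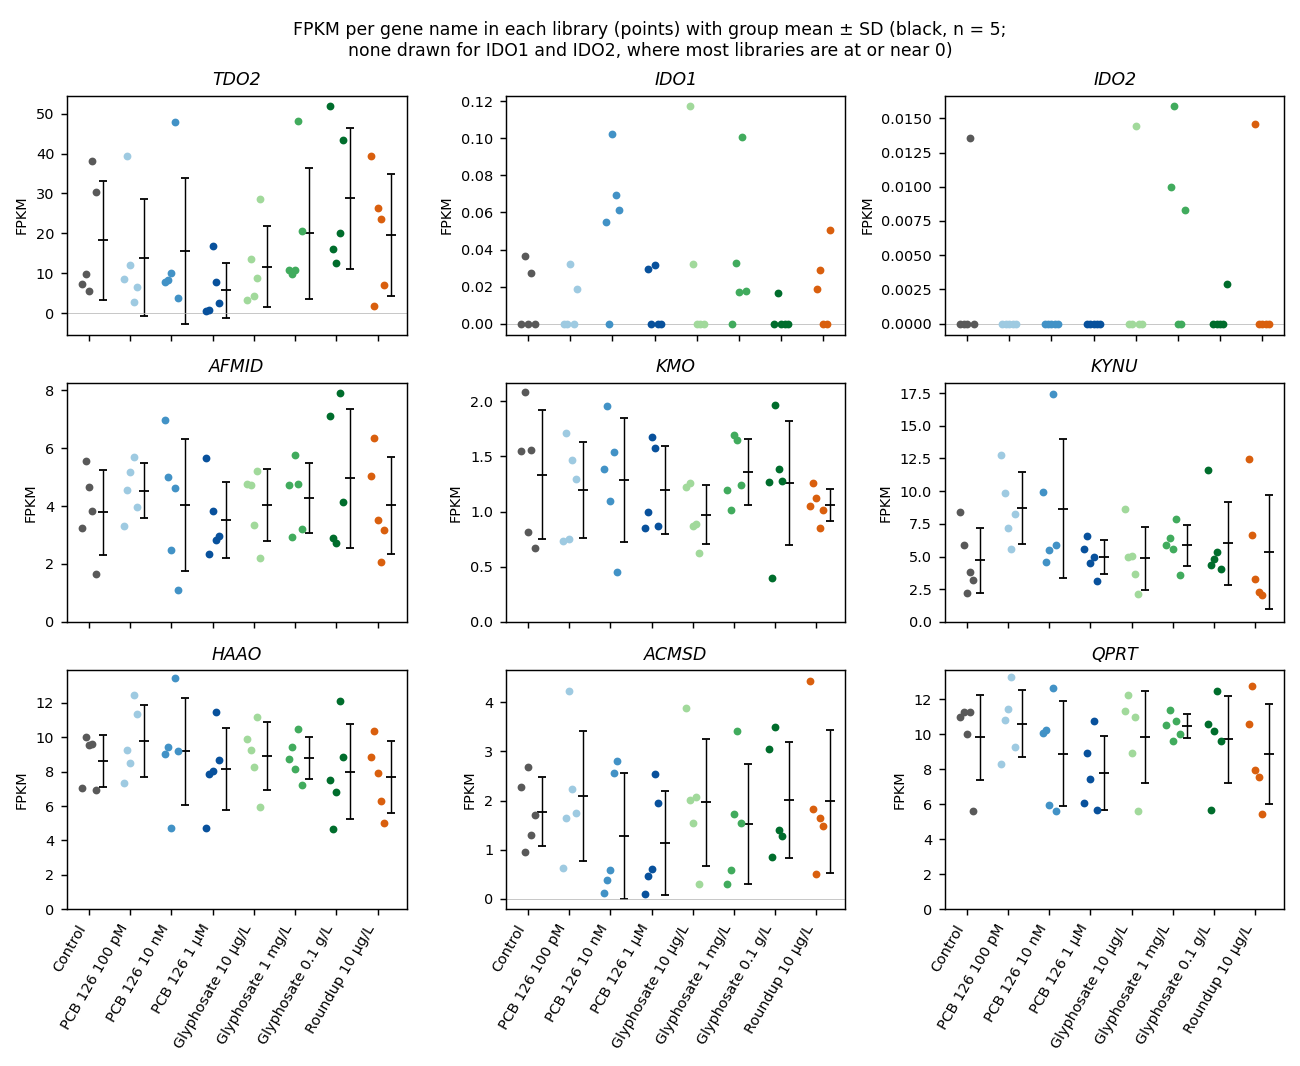
FPKM per gene name of the 9 members in each of the 40 libraries, with the group mean and SD in black except for IDO1 and IDO2. Each treated group overlapped its controls for all 9 genes, TDO2 ran from 0.538 to 51.8 FPKM, and IDO1 and IDO2 did not exceed 0.117 and 0.0159 FPKM. The vertical axes are linear and differ between genes.

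TDO2 (tryptophan dioxygenase) is the hepatic enzyme of the first step. Its named transcripts span chromosome 4 from 155854738 to 155920406 on the plus strand of GRCh38. By gene name the 5 control libraries were at 7.21, 9.87, 5.70, 38.1 and 30.3 FPKM, and the libraries of PCB 126 at 1 µM were at 0.538, 0.818, 16.8, 7.81 and 2.56 FPKM. Of the 5 libraries at 1 µM 3 were below every control, and the groups overlapped. The means were 18.2 ± 14.9 FPKM (SD, n = 5) in control and 5.71 ± 6.87 FPKM at 1 µM, a log2 fold change of -1.77 with a standard error of 0.68 that was not called (limma, p = 0.0153, adjusted p = 0.228; exact permutation p = 0.0794). At 100 pM and 10 nM the means were 13.9 ± 14.7 and 15.6 ± 18.2 FPKM. In both of these groups 1 library, at 39.5 and 47.9 FPKM, was far above the other 4.

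Most of the FPKM of the TDO2 locus lay in transcripts that carry no gene name. Beside annotated transcripts, the tables list transcripts that StringTie assembled, and some of these have no gene name. Of the 43.7 FPKM of the locus, averaged over the 40 libraries, 38.2% was in the 8 transcripts named TDO2 and 61.8% in 2 unnamed transcripts of the same locus. The larger of them, MSTRG.32119.6, had 12 exons and 1784 bases, ran from 155903616 to 155920406 on the plus strand, averaged 26.4 FPKM and was above 0 in 40 of 40 libraries. The annotated transcript ENST00000536354 also has 12 exons, starts at 155903695 and ends at the same base, and was listed above 0 in only 2 of 40 libraries. Exon positions were not given, so the 2 structures were not compared further. The share of the locus in named transcripts ranged from 3.07% to 83.4% among the libraries, with a median of 28.4%. The named transcript ENST00000506072, for example, was at 0 in 2 control libraries and at 22.3 FPKM in control replicate 4. A sum over the whole locus was therefore added after the data had been seen, and what follows on loci rests on that choice.

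Summed over its assembled locus, TDO2 fell at 1 µM PCB 126 and over the dose steps. The 5 control libraries were at 55.6, 36.4, 47.2, 55.8 and 38.1 FPKM. At 1 µM the libraries were at 9.56, 26.6, 30.6, 27.4 and 22.5 FPKM, so that 5 of 5 were below the lowest control. The mean went from 46.6 ± 9.28 FPKM (SD, n = 5) to 23.3 ± 8.21 FPKM, a ratio of 0.50. The log2 fold change was -1.04 with a standard error of 0.29 (95% interval from -1.62 to -0.47; limma, adjusted p = 0.0245), and the exact permutation p was 0.00794, the smallest that 5 libraries against 5 allow. In this comparison 4.04% of the 9832 loci tested were called, and the median log2 fold change of all loci was -0.25. An unadjusted p under 0.05 was reached by 1555 of these loci (limma). How many loci had no overlap between control and 1 µM was not counted. Of the called loci 276 were lower and 121 higher, a split that became 913 and 871 with quantile normalization and 682 and 799 with a library-size term. TDO2 was lower and called under both of these. It was the only one of the 6 tested members called per locus. At 10 nM the libraries were at 32.1, 29.7, 24.3, 60.1 and 22.9 FPKM, and 4 of 5 were below the lowest control while replicate 4 was above the highest. That difference, -0.52 with a standard error of 0.29, was not called (limma, adjusted p = 0.824), and 0.488% of loci were. At 100 pM the libraries were at 43.6, 47.3, 32.7, 64.7 and 41.7 FPKM and overlapped the controls, with a log2 fold change of -0.03 in a test that called 0.0102% of loci. Over the 4 dose steps the slope was -0.36 per step with a standard error of 0.09 (limma, adjusted p = 0.00783), in a test that called 6.82% of loci. The F-test across the 4 PCB 126 groups did not call TDO2 (limma, adjusted p = 0.053) and called 3.28% of loci. With the replicate block, 75th-percentile scaling or quantile normalization it did call TDO2.

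The call at 1 µM depended on single libraries. Without control replicate 1, 3 or 4, or without 1 µM replicate 1, the adjusted p rose to 0.0792, 0.0562, 0.0782 and 0.127, and the log2 fold change without that 1 µM library was -0.76. Without the 5 libraries that stood apart it was -0.75 (limma, adjusted p = 0.0624). The slope over dose steps was called after each of the 20 libraries had been left out, with adjusted p between 0.00231 and 0.037. Some other genes were lower too, here tested by gene name, where TDO2 itself was not called. By gene name 3.7% of the 9755 genes tested were called over dose steps and 1.87% at 1 µM. Over the same dose steps 4 of 8 hepatocyte markers were called lower, ALB, CPS1, TF and TTR, with slopes of -0.38, -0.40, -0.44 and -0.57 per step (limma, adjusted p = 0.0202, 0.0148, 0.0138 and 0.00225). Of 8 hepatocyte markers tested at 1 µM, CPS1 and TTR were called lower, with log2 fold changes of -1.16 and -1.62 (limma, adjusted p = 0.0385 and 0.00797), and their median was -0.96. The summed FPKM of the 8 markers ranged from 13265 to 19402 in controls and from 5433 to 13296 at 1 µM. Of 4 stellate or fibroblast markers COL3A1 was called lower, with a log2 fold change of -3.07 (limma, adjusted p = 2.29e-05), and their sum ranged from 12.2 to 28.1 FPKM in controls and from 4.46 to 10.7 FPKM at 1 µM. The biliary or progenitor sum ranged from 195.2 to 401.8 FPKM and from 103.3 to 199.6 FPKM, with neither of 2 tested markers called. In controls most of that sum was KRT19, and most of the hepatocyte sum was ALB. The part of these shifts in the TDO2 result was not tested.

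**Figure D2:**
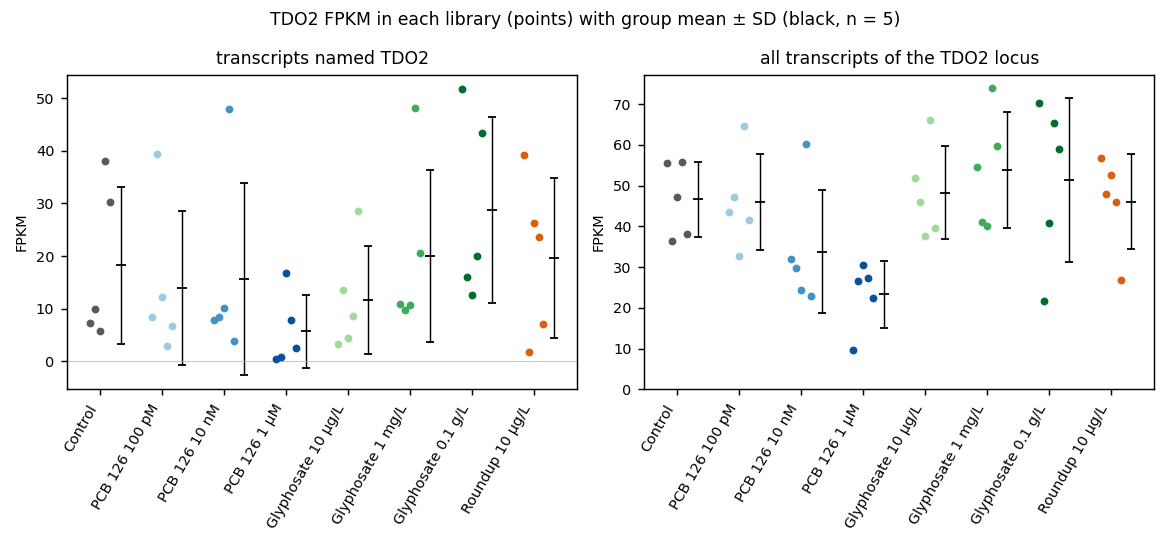
TDO2 FPKM in each library by group, from transcripts named TDO2 on the left and from all transcripts of its assembled locus on the right, with the mean and SD of 5 libraries in black. On the right the 1 µM libraries lie between 9.56 and 30.6 FPKM and the controls between 36.4 and 55.8 FPKM, whereas on the left these groups overlap.

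With the herbicides TDO2 overlapped its control values. Per locus, the glyphosate libraries ranged from 37.6 to 66.0 FPKM at 10 µg/L, from 40.05 to 74.1 FPKM at 1 mg/L and from 21.6 to 70.4 FPKM at 0.1 g/L, and the Roundup libraries from 26.8 to 56.9 FPKM. All 4 groups overlapped the controls. No member was called per locus in the 7 herbicide tests, where 0.0106% of loci were called at 10 µg/L and at 0.1 g/L of glyphosate, 0.0211% by the F-test and 0% in the other 4. The log2 fold change at 0.1 g/L was 0.05 per locus (95% interval from -0.49 to 0.59) and 0.79 per gene name (95% interval from -0.49 to 2.07), with an adjusted p of 1 from limma in both. The interval per locus holds changes of either sign of about 0.5 on the log2 scale. Roundup and glyphosate at the matched concentration of 10 µg/L differed by -0.08 per locus (95% interval from -0.62 to 0.46), where a positive value means higher with Roundup.

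Since PCB 126 acts through a receptor that binds a known core in DNA, the letters GCGTG were looked for, on both strands, in windows from 250 bases before to 50 bases after annotated starts (RefSeq sequences, build GRCh38.p14). Of 35116 windows 36.5% held the core. Of the 6 members with a window only AFMID held it, with 1 match. TDO2, KMO, KYNU, HAAO and QPRT had none. The stretch of the TDO2 window before the assembled transcript starts is shown because TDO2 was the only member called, and only per locus. The bases around the core of AFMID and of CYP1A1 are shown beside it with the core in capitals.
TDO2, chr4:155903446-155903615, plus strand: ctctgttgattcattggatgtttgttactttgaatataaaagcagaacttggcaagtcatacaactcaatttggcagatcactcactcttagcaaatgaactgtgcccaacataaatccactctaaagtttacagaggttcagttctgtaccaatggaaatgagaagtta
AFMID, chr17:78187337-78187361, plus strand: cagagggacgCACGCccatgcggct
CYP1A1, chr15:74725571-74725595, minus strand: agggaaggagGCGTGgccacacgta
AFMID, with the core in its window, had a log2 fold change of -0.06 per gene name at 1 µM, and CYP1A2, at 6.16, had none in its window. CYP1A1, with the core, was called higher at 1 µM. AHRR, listed as a target of the same receptor, had 3 matches over 2 windows and was not called. CYP1B1, called higher, had no window. A match describes letters only, and its absence from a window says nothing of the receptor elsewhere.

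IDO1 and IDO2 catalyse the same first step. IDO1 was listed above 0 in 20 of 40 libraries and above 0.1 FPKM in 3 of them, with a highest value of 0.117 FPKM in glyphosate 10 µg/L replicate 1. In the controls it was at 0, 0.0363, 0, 0.0272 and 0 FPKM. At 10 nM PCB 126, where it was highest on average, it was at 0.0548, 0, 0.103, 0.0692 and 0.0612 FPKM, and at 1 µM at 0.0295, 0, 0.0318, 0 and 0 FPKM. IDO2 was above 0 in 7 of 40 libraries, never above 0.0159 FPKM, and was listed at 0 in all 15 PCB 126 libraries. Neither gene had an unnamed transcript in its locus. Interferon-gamma targets were present beside them, with GBP2 at 28.4 ± 8.72 FPKM (SD, n = 5) in controls. None of the 4 targets tested of 7 was called in any of the 12 tests, nor had any an unadjusted p under 0.05 in the PCB 126 tests.

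AFMID (arylformamidase) removes the formyl group that the first step leaves, which gives kynurenine. It lies on chromosome 17 from 78187317 to 78207701 on the plus strand. Its named transcripts held 38.98% of the locus, 4.15 of 10.6 FPKM. By gene name the controls were at 3.24, 5.55, 4.65, 3.82 and 1.64 FPKM and the 1 µM libraries at 5.65, 2.36, 3.82, 2.82 and 2.96 FPKM. These values overlapped almost fully, with a log2 fold change of -0.06 (95% interval from -0.70 to 0.59). The group means of AFMID stayed between 3.52 FPKM at 1 µM and 4.96 FPKM at glyphosate 0.1 g/L. Per locus they stayed between 9.71 and 11.9 FPKM.

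**Figure D3:**
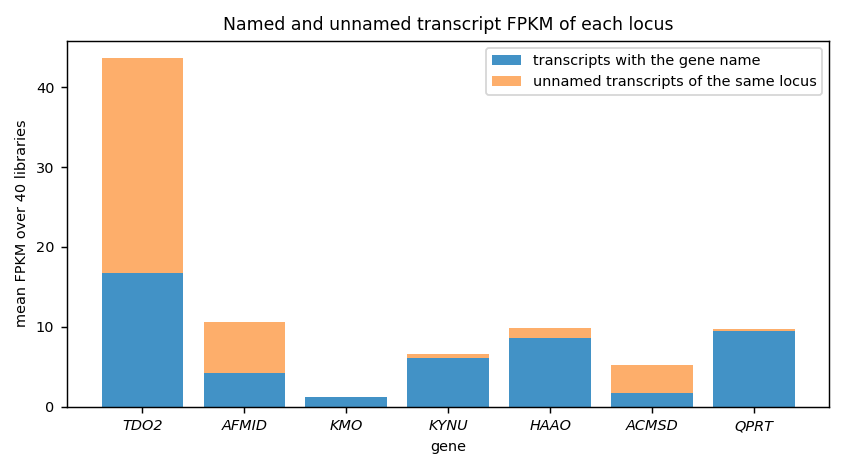
Mean FPKM over 40 libraries of each locus, split into transcripts that carry the gene name and unnamed transcripts of the same locus, for the 7 members above 1 FPKM. The unnamed part is 61.8% for TDO2, 61.02% for AFMID and 67.3% for ACMSD, and 0% for KMO.

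KMO (kynurenine monooxygenase), a flavoprotein of the outer mitochondrial membrane, hydroxylates kynurenine. Among members above 1 FPKM it had the lowest mean per gene name, 1.21 FPKM, and all of its FPKM was in named transcripts on chromosome 1 from 241532134 to 241595642. The controls were at 1.55, 2.08, 0.817, 1.56 and 0.670 FPKM and the 1 µM libraries at 0.853, 0.998, 1.68, 1.57 and 0.866 FPKM. KMO was thus spread over the same range in both. Its group means lay between 0.973 FPKM at glyphosate 10 µg/L and 1.36 FPKM at 1 mg/L.

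KYNU (kynureninase) cleaves kynurenine and hydroxykynurenine and yields anthranilate and hydroxyanthranilate. It lies on chromosome 2 from 142877498 to 143055832 on the plus strand. The controls were at 8.40, 5.88, 2.23, 3.82 and 3.21 FPKM. With PCB 126 at 100 pM the libraries were at 12.7, 9.84, 7.19, 5.58 and 8.27 FPKM, at 10 nM they were at 9.94, 4.56, 5.48, 17.4 and 5.90 FPKM, and at 1 µM at 5.55, 6.60, 4.50, 4.95 and 3.13 FPKM. The middle of the range was thus higher at the 2 lower doses and close to control at 1 µM, while all groups overlapped. The log2 fold changes were 0.83 with a standard error of 0.32 at 100 pM (limma, p = 0.0173, adjusted p = 1; exact permutation p = 0.0556), 0.71 at 10 nM (limma, p = 0.0374, adjusted p = 0.865) and 0.13 at 1 µM.

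Within KYNU, transcript ENST00000409512 was higher in all 5 libraries at 100 pM than in any control. It was at 0.497, 0.161, 0, 0.981 and 0.0168 FPKM in controls and at 9.03, 4.54, 4.2004, 1.17 and 3.597 FPKM at 100 pM. At 10 nM it was at 4.19, 0.177, 3.80, 11.1 and 0.0890 FPKM, with 2 of 5 libraries inside the control range, and single libraries reached 7.62 FPKM at glyphosate 0.1 g/L and 7.12 FPKM with Roundup. The transcript was singled out after its values had been seen, and the adjusted p over all transcripts was 0.865 (limma). Of 21181 transcripts tested at 100 pM, 785 had an unadjusted p under 0.05 (limma). How many of them lay fully above or below the controls was not counted. No transcript of a member was called in any test. The share of all transcripts called was 0.00472% at 100 pM, 0.0614% at 10 nM, 0.552% at 1 µM, 0.906% over dose steps and 0.364% by the F-test. It was 0.00485% in the trend over glyphosate doses and 0% in the other 6 herbicide tests. The long transcript ENST00000264170 averaged 1.83 ± 0.43 FPKM (SD, n = 5) in control and 1.99 ± 0.25 FPKM at 100 pM. The unnamed MSTRG.23309.2 of the same locus averaged 1.68 FPKM in control, 0.147 FPKM at 100 pM, 1.61 FPKM at 10 nM and 0 at 1 µM. Summed over the locus, KYNU averaged 6.38 ± 4.80 FPKM in control and 8.87 ± 2.72 FPKM at 100 pM, a ratio of 1.39 (exact permutation p = 0.198). How the assembler divided the same fragments between these transcripts was not tested.

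HAAO (hydroxyanthranilate dioxygenase) opens the ring of hydroxyanthranilate, and its unstable product either closes to quinolinate or is taken up by ACMSD. It lies on chromosome 2 from 42767089 to 42792593 on the minus strand. Controls were at 7.04, 10.0, 9.54, 9.59 and 6.92 FPKM and 1 µM libraries at 4.74, 7.87, 8.03, 11.5 and 8.67 FPKM. The log2 fold change of HAAO at 1 µM was -0.10 (95% interval from -0.63 to 0.43), and its group means ran from 7.70 FPKM with Roundup to 9.76 FPKM at 100 pM.

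ACMSD decarboxylates that unstable product and so turns it away from quinolinate and NAD. It lies on chromosome 2 from 134838547 to 134902034 on the plus strand. By gene name the controls were at 2.27, 0.944, 2.68, 1.30 and 1.70 FPKM and the 1 µM libraries at 0.105, 0.459, 0.616, 2.54 and 1.96 FPKM. Here 3 of 5 libraries at 1 µM were below every control. The log2 fold change was -0.48 with a standard error of 0.37 (limma, adjusted p = 0.559). Named transcripts held 32.7% of its locus. Per locus the controls were at 6.45, 6.06, 5.85, 6.72 and 2.74 FPKM and the 1 µM libraries at 2.24, 4.23, 3.77, 5.55 and 2.13 FPKM. All of the latter were below 4 of the 5 controls. The log2 fold change per locus was -0.53 with a standard error of 0.27 (limma, p = 0.059, adjusted p = 0.339; exact permutation p = 0.0952), and the slope was -0.19 per dose step (limma, p = 0.0307, adjusted p = 0.183). The difference was not called.

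QPRT (quinolinate phosphoribosyltransferase) closes the pathway by turning quinolinate into a nicotinate mononucleotide. It lies on chromosome 16 from 29679008 to 29698699 on the plus strand, and 98.0% of its locus was in named transcripts. Controls were at 10.97, 11.3, 10.0, 11.3 and 5.60 FPKM and 1 µM libraries at 6.08, 8.94, 7.42, 10.8 and 5.65 FPKM. Control replicate 5, a library that stood apart, was lower than all 5 libraries at 1 µM. The log2 fold change of QPRT was -0.30 (95% interval from -0.83 to 0.23) at 1 µM and 0.12 at 100 pM. At glyphosate 1 mg/L its libraries were close together, from 9.60 to 11.4 FPKM.

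**Figure D4:**
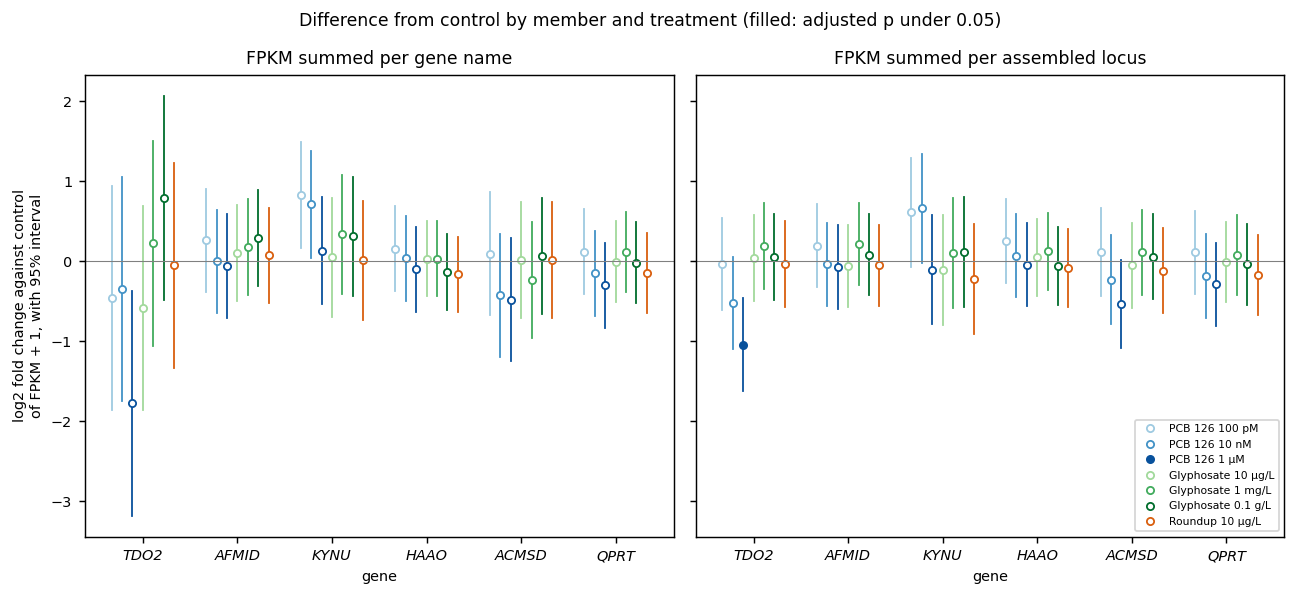
Log2 fold change of FPKM + 1 against control with its 95% interval for the 6 tested members under 7 treatments, per gene name on the left and per assembled locus on the right. The filled point, TDO2 per locus at 1 µM PCB 126, is the only one with an adjusted p under 0.05, and all 7 treatments share the 5 control libraries.

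The median log2 fold change of the 6 tested members, per gene name, was 0.14 at 100 pM, -0.08 at 10 nM and -0.20 at 1 µM. Over all 9755 genes tested the medians were 0.07, -0.21 and -0.26. With glyphosate at 0.1 g/L the members' median was 0.18 against -0.01 over all genes, and with Roundup -0.02 against -0.18. Per locus these 6 members ran from -0.06 (HAAO) to 0.12 (KYNU) at 0.1 g/L, with a median of -0.01 over all loci. With Roundup they ran from -0.22 (KYNU) to -0.04 (TDO2), with a median of -0.18 over all loci. Ordered by mean per gene name, TDO2 was highest at glyphosate 0.1 g/L and lowest at 1 µM PCB 126. Per locus it was highest at glyphosate 1 mg/L and again lowest at 1 µM PCB 126. Neighbours in such an order are close by construction, and for each of the 9 members the libraries of neighbouring groups overlapped.

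The genes around the pathway were examined through 6 lists with 46 genes, of which 28 were tested in the PCB 126 table and 27 in the herbicide table. They were tryptophan transport, kynurenine side routes, the glutarate route after ACMSD, other tryptophan routes, NAD synthesis and salvage, and use of nicotinamide and NAD. TIPARP was the only one called. It is an ADP-ribosyltransferase that uses NAD and a known target of the aryl hydrocarbon receptor, and its log2 fold change was 2.32 at 10 nM and 3.21 at 1 µM (limma, adjusted p = 0.00841 and 4.8e-05). In tryptophan transport 1 of 6 genes was tested and not called. That gene, SLC3A2, the shared heavy chain of amino acid transporters, was at 40.1 ± 10.7 FPKM (SD, n = 5) in controls. In the side routes 3 of 4 were tested and none was called. KYAT1, an aminotransferase that makes kynurenate, had a log2 fold change of 0.79 at 1 µM (limma, adjusted p = 0.14). In the glutarate route 2 of 3 were tested and in the other tryptophan routes 5 of 9, with no call. MAOA, the monoamine oxidase that degrades serotonin, had a log2 fold change of -0.78 (limma, adjusted p = 0.196). In NAD synthesis and salvage 6 of 10 were tested with no call. NAMPT, the rate-limiting enzyme of nicotinamide salvage, was at 52.3 ± 15.7 FPKM in controls, and NAPRT, which starts from nicotinate, at 12.1 ± 2.59 FPKM. In the last list 11 of 14 were tested. NNMT, which methylates nicotinamide, had a log2 fold change of 1.15 (limma, adjusted p = 0.227).

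Targets of 2 receptors were examined beside TDO2. Of 4 aryl hydrocarbon receptor targets CYP1A1, CYP1A2 and CYP1B1 were called higher at 10 nM and 1 µM, and their log2 fold changes at 1 µM were 6.61, 6.16 and 2.51 (limma, adjusted p = 7.44e-05, 2.29e-05 and 0.00797). The summed level of the list ranged from 8.86 to 35.6 FPKM in controls and from 301.9 to 876.7 FPKM at 1 µM. TDO2 is known to be induced by glucocorticoids in liver. Among 5 glucocorticoid targets, 4 of them tested, TAT was called higher at 10 nM and 1 µM, with log2 fold changes of 1.40 and 1.48 (limma, adjusted p = 0.0322 and 0.00497). TAT is the tyrosine aminotransferase of hepatocytes. No other gene of that list was called. These tests were by gene name, where TDO2 was not called. Per locus TDO2 was called lower at 1 µM but not at 10 nM. A link between TAT and TDO2 was not tested.

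For each member above 1 FPKM, the genes most like it over the 40 libraries were taken by Pearson's r of log2(FPKM + 1) among 9260 genes tested in both tables. QPRT was most like BLOC1S6, IARS2 and ADH5, with r of 0.96, 0.96 and 0.95. HAAO was most like EHHADH, OTC and GCLC, with r of 0.90, 0.87 and 0.87. For AFMID they were C19orf60, TRAPPC6A and TBC1D20, with r of 0.78, 0.77 and 0.75, for KMO RAB4A, PRPF3 and TMEM161B-AS1, with r of 0.73, 0.72 and 0.71, and for KYNU NR0B2, LIMK2 and MRPL46, with r of 0.73, 0.72 and 0.72. The values were lower for ACMSD, with TOMM5, AC135048.4 and GIGYF2 at 0.60, 0.58 and 0.57, and for TDO2, with PKIB, AFM and HSD17B6 at 0.56, 0.55 and 0.54. All r were taken on sums per gene name. The named share of the locus ran from 2.81% to 92.0% for ACMSD and from 3.07% to 83.4% for TDO2 among libraries. The part of this spread in their lower r was not tested. These libraries share their control group, their sequencing pool and the libraries that stood apart, so the values are descriptions.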

How the data were processed

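RNA-seq of HepaRG cells gave 40 libraries, 5 per group. Per the labels and the study's methods, the authors aligned reads with HISAT2 to GRCh38 and assembled and quantified transcripts with StringTie. The deposited values are FPKM per transcript in 2 tables, without counts. In 9 deposited columns 1 or 2 values lay just below 0, the range of a score rather than of FPKM. These 4 values of the PCB 126 table and 6 of the herbicide table were set to 0, and all columns were used as FPKM. FPKM were summed per gene name, log2(FPKM + 1) was taken, genes with a variance of FPKM above 1 were kept, and groups were compared with limma 3.58.1 in R 4.3.3 using all libraries of a table, with Benjamini-Hochberg adjustment. The 2-sided exact permutation tests were not adjusted. All members were named, and of each list the genes called in any comparison and up to 4 of the highest mean FPKM in control. The 3 genes most like each member by Pearson's r were also named. The level of 1 listed gene is not reported here. Members and lists were chosen with earlier results of these data known. Sums per assembled locus were added after the data were seen. The alternatives were another pseudocount, no filter, scalings, a library-size term, a replicate block, the most abundant transcript, FPKM without log, and libraries left out. The fit by gene name of the PCB 126 table was also run on simulated data, with no simulation per locus. Its outcome is not reported here. Figures were drawn with Python 3.11.15 and matplotlib 3.10.9.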

Additional observations from a re-analysis of the deposited data

Results flagged for a closer look

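In 7 of 80 groups of 5 libraries, 1 library lay further from its nearest neighbour than Dixon's criterion allows (a gap of more than 0.71 of the group's range), which chance gives in about 1 in 20 groups. TDO2 by gene name was high in PCB 126 100 pM replicate 2, at 39.5 FPKM against 2.84 to 12.2 in the others. It was also high in 10 nM replicate 4, at 47.9 FPKM against 3.90 to 10.1, and in glyphosate 1 mg/L replicate 4, at 48.2 FPKM against 9.71 to 20.5. Per assembled locus TDO2 was high in 10 nM replicate 4 only, at 60.1 FPKM against 22.9 to 32.1. KYNU was high in glyphosate 0.1 g/L replicate 1, at 11.6 FPKM against 4.02 to 5.32. Control replicate 5 was low for QPRT, at 5.60 FPKM against 10.0 to 11.3, and for ACMSD per locus, at 2.74 FPKM against 5.85 to 6.72.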

How the results depend on the processing

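The count of members called by gene name was 0 in the 12 tests under 8 other settings, the replicate block on runs of library numbers among them (value 0), and with each library left out (0 to 0). It became 1 (TDO2) for 1 µM PCB 126 and for the trend over dose steps when FPKM were summed per assembled locus, an alternative added after the data were seen. The number of exact permutation tests with p under 0.05 was 0 with or without the log and 1 per assembled locus. Replicate numbers follow accession order, and the labels do not state whether they pair samples. Each run of consecutive library numbers held a library of every group. The main fit had no term for these runs. Per locus, TDO2 at 1 µM kept its sign throughout and lost its call with a pseudocount of 0.1 (-1.08, adjusted p = 0.0531), without a filter (-1.04, adjusted p = 0.18) and without the libraries that stood apart (-0.75, adjusted p = 0.0624). It was called with 75th-percentile scaling, quantile normalization (-0.85), a library-size term (-0.81) and the block (adjusted p = 0.00876). With each library left out it ran from -1.16 to -0.76. The trend lost its call without a filter (adjusted p = 0.0869). The F-test per locus gained TDO2 with the block (584 loci called), 75th-percentile scaling (510) and quantile normalization (1240), against 322 loci without TDO2. Relative to the median of all loci the difference was between -1.002 and -0.63 under these settings. Over all genes at 1 µM, 182 were called, 571 with 75th-percentile scaling, 1085 with quantile normalization, 807 with a library-size term, 520 without the libraries that stood apart, 357 with the block, 397 per locus, 173 without a filter, 161 with a pseudocount of 0.1 and 129 with the most abundant transcript. The corresponding counts were 20 and from 14 to 184 at 10 nM, 361 and from 236 to 1257 over dose steps, and 136 and from 88 to 714 by the F-test. Per locus 397 were called at 1 µM and from 243 to 1784 in the other settings, and 671 and from 485 to 1966 over dose steps. The number of libraries, not a known depth, limits these results.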
